A study of Mus musculus with 6 samples.

Results

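The genes described here are 36 genes of fibroblasts and of the extracellular matrix other than collagens, of the 27179 genes in the count files. They were chosen by name and function, with earlier results of these data known: surface and cell markers of fibroblasts and fibro-adipogenic progenitors, tendon genes, small leucine-rich proteoglycans, elastic fibre genes, lysyl oxidases, matrix glycoproteins, matrix proteases with their inhibitors, and the TGF-β ligands. They were measured by RNA-seq of total RNA in quadriceps of 3 mice per genotype, with replicates named B, C and D for control and A, E and F for miDrp1KO, called knockouts where values are given by library. The miDrp1KO mice carried floxed *Drp1* (*Dnm1l*) and HSA-MerCreMer, a Cre recombinase switched on by tamoxifen, under the human skeletal actin promoter, which is active in muscle fibres and not in fibroblasts. The control mice are labelled f/f and, per the methods of the study, also received tamoxifen. Whether they carried Cre is not given in the sources used here. All mice were injected at 3 months of age, ate normal chow, and quadriceps were collected 3 weeks after the deletion. Each title names a separate library of a genotype. That each came from its own animal is read from these titles, and p-values measure the spread between these libraries.

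Between and around muscle fibres lies a matrix that resident fibroblasts make and renew. In skeletal muscle these cells are largely fibro-adipogenic progenitors, which carry PDGF receptor α and Sca-1 and can become either matrix-producing cells or adipocytes. Tendon cells make a related matrix rich in fibromodulin, cartilage oligomeric matrix protein and thrombospondin 4. TGF-β, held in the matrix in a latent form, signals through Smad proteins and is a well-known inducer of matrix genes. Quadriceps was measured as bulk tissue, in which fewer cells of a type and less RNA per cell cannot be told apart.

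The 6 libraries held 13989588 to 62042255 counts, with the lowest and the highest total both in the control group. *Dnm1l* stood at 114 to 156 CPM (counts scaled to a common library size, with TMM normalization) in control libraries and at 66.2 to 81.3 CPM in miDrp1KO libraries, lower in every miDrp1KO library. Ribosomal RNA genes took 1.48% of the counts in replicate E, the lowest share of the 6 libraries, and 24.4% in replicate F, the highest. Of a list of 10 muscle fibre markers, 8 were lower in miDrp1KO muscle, with summed levels of 149201 to 162260 CPM in control libraries and 74236 to 121765 CPM in miDrp1KO libraries, lowest in E. None of the markers used here was at 0 in any library. The tissue label was therefore met by the fibre markers in all libraries.

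All 36 genes were detected well enough to be tested, and 32 had a higher fitted level in miDrp1KO muscle. The 4 with a lower level were *Gsn*, *Eln*, *Timp3* and *Tgfb3*. The median log2 fold change (miDrp1KO minus control) of the 36 genes was 0.32, against 0.02 over all 16483 tested genes. None of the 36 passed the adjusted threshold of 0.05 (edgeR's quasi-likelihood fit, lowest adjusted p = 0.382), where 0.0121% of all tested genes did, namely 2. With DESeq2 the count among the 36 was also 0, with a lowest adjusted p of 0.0996, but 14 of the 36 had no adjusted p. In that fit 4511 of 24299 genes had an adjusted p, and 109 of them passed. With limma voom the count among the 36 was 0, with a lowest adjusted p of 0.292, and 2 of all tested genes passed. At an unadjusted p under 0.05, 4 of the 36 were higher (*Dpp4*, *Scx*, *Tnxb* and *Fn1*), against 4.68% of all tested genes, and 0 were lower, against 6.22%. In none of the 36 did the 3 miDrp1KO libraries all lie above, or all below, the 3 control libraries. Over all tested genes such a separation occurred upward in 7.67% and downward in 10.3%. The genes thus shared a direction in the fitted values without any one of them separating the groups.

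**Figure D1:**
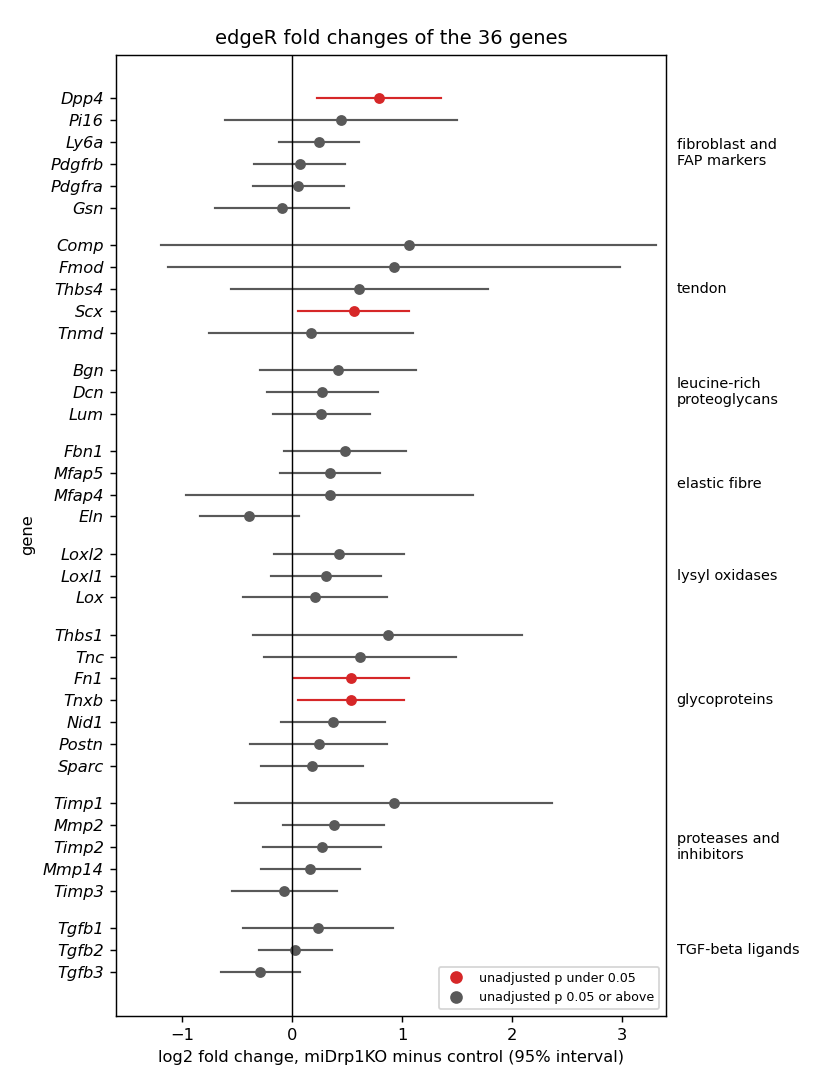
Log2 fold change (miDrp1KO minus control) of each of the 36 genes with its 95% confidence interval, grouped by role. The values are mostly on the positive side, and the interval excludes 0 for *Dpp4*, *Scx*, *Tnxb* and *Fn1* before adjustment. The widest intervals belong to the tendon genes *Comp* and *Fmod*.

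The precision of these comparisons differed between genes. The 95% confidence interval lay within 1 log2 unit of 0 on both sides for 20 of the 36 genes, and reached a difference of 1 or more for the other 16. The median SD within groups on the log2 scale was 0.347 for the 36 genes and 0.295 for all tested genes. The matrix genes as a list therefore varied somewhat more between libraries of 1 genotype than a typical tested gene did, as a description of these libraries.

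Much of the higher level was carried by 1 library. Replicate E was the highest of the 6 libraries for 25 of the 36 genes, whereas it was the highest for 17.4% of all tested genes. It lay above every control library for 27 of the 36 (75.0%), against 29.2% of all tested genes. Replicate F lay above every control library for 12 of the 36 (33.3%), against 31.1%, and replicate A for 4 (11.1%), against 24.9%. The share in F was close to that of all genes and the share in A was below it. Without replicate E, 25 of the 36 genes remained higher and 11 were lower, the median fell to 0.13, and *Dpp4* alone kept an unadjusted p under 0.05. Leaving out 1 of the other libraries moved the median less far down or moved it up. The median was 0.42 without replicate A, 0.43 without control replicate C, 0.30 without control replicate B, 0.25 without control replicate D and 0.45 without replicate F. Genes higher at an unadjusted p under 0.05 then numbered 12 without A, where 8.55% of all tested genes in the same fit were, and 10 without C, against 5.02%. They numbered 1 without B (as few as without E), against 5.30%, 2 without D, against 3.21%, and 4 without F, against 3.60%, and the share of all tested genes without E was 3.27%. At that level 1 gene was lower, *Eln* without C. Leaving out E moved the log2 fold change of 23 of the 36 genes by over 1.5 times or turned its sign, and leaving out any other single library did so for 8 to 16. *Dpp4*, *Scx*, *Tnxb* and *Tgfb3* were the 4 genes that no single library moved that far. Replicate E also had the lowest ribosomal RNA share and the lowest summed level of muscle fibre markers in CPM. Its TMM scaling factor was 1.42, whereas those of the other libraries ran from 0.840 in B to 1.04 in F. The rank of a library in CPM depends on these factors. With the share of ribosomal RNA as covariate, 33 of the 36 genes were higher with a median of 0.44, and 11 were higher at an unadjusted p under 0.05, against 3.76% of all tested genes in that fit, but the lowest adjusted p was 0.587. The part of the lower muscle fibre level in the higher matrix level was not tested.

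**Figure D2:**
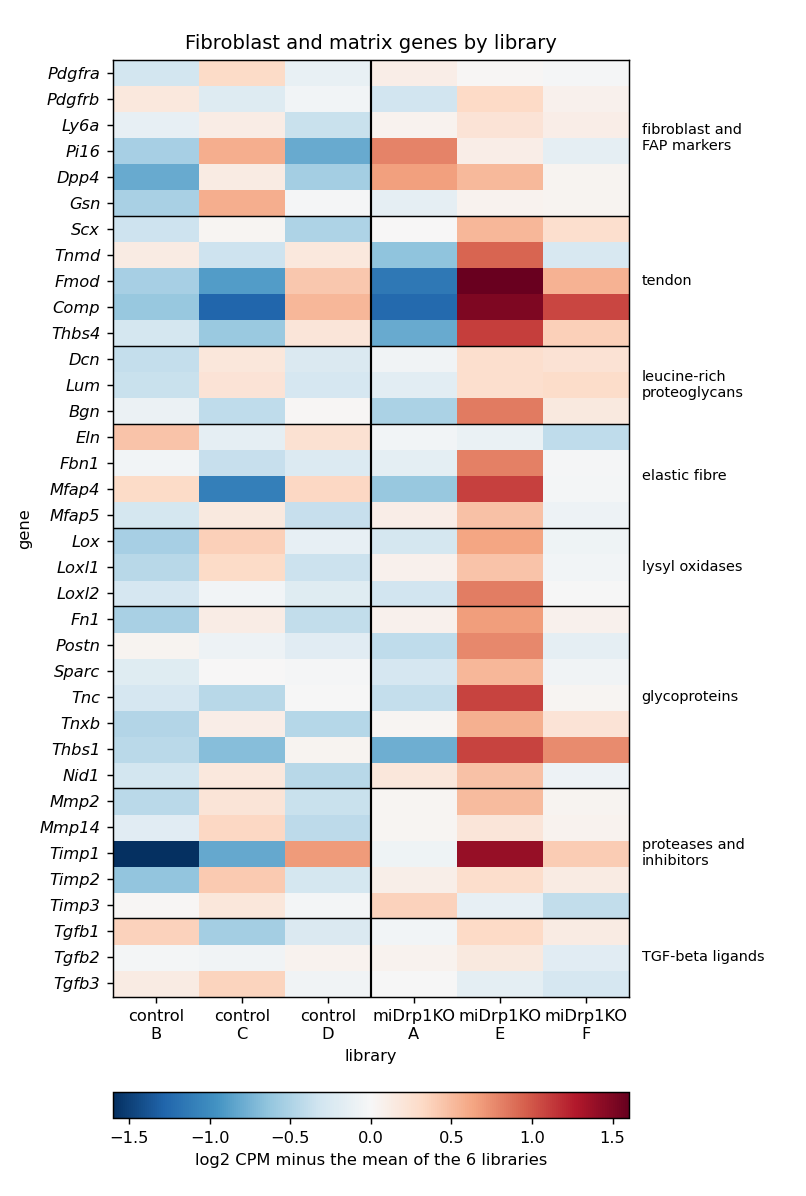
Level of each of the 36 genes in each library as the log2 deviation from the gene's mean over the 6 libraries, with controls B, C and D to the left of miDrp1KO A, E and F, grouped by role. The column of replicate E is above the mean for 33 of the 36 genes, and that of control replicate B is the lowest of all libraries for 12.

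**Figure D3:**
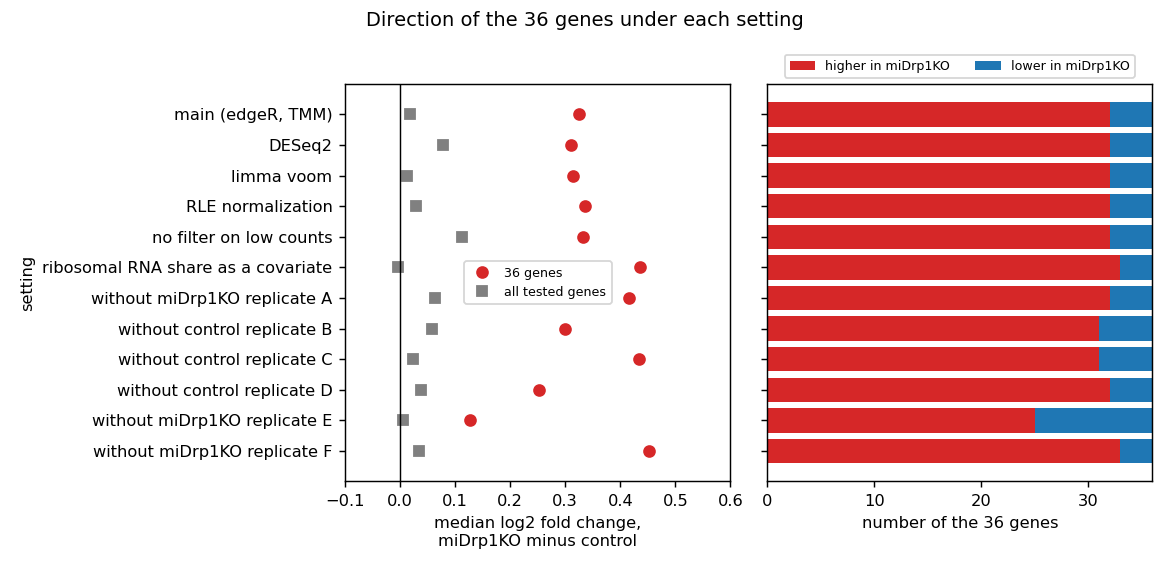
Median log2 fold change of the 36 genes and of all tested genes (left) and number of the 36 genes higher or lower in miDrp1KO muscle (right) under the reported fit, 5 other settings and 6 fits without 1 replicate each. The median of the 36 genes stayed above that of all tested genes in each, and came closest to it without replicate E, with 25 genes higher and 11 lower.

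The cells that make the matrix are represented by 6 marker genes, of which 5 were higher (median log2 fold change 0.16). The median was 0.29 without control C, and 4 of the 6 were higher without B or without E. Their summed level was 1203 ± 423 CPM in control and 1172 ± 58.9 CPM in miDrp1KO muscle (SD, n = 3), of which *Gsn*, the only one with a lower fitted level, gave 1008 and 945 CPM. *Pdgfra*, the receptor that defines fibro-adipogenic progenitors, stood at 83.8, 127 and 94.2 CPM in controls B, C and D and at 111, 104 and 101 CPM in knockouts A, E and F. All 3 miDrp1KO values lay within the control range, and the log2 fold change was 0.06 (95% interval -0.36 to 0.47). *Pdgfrb*, the related receptor shared with pericytes, had a log2 fold change of 0.07 (95% interval -0.34 to 0.48). For both receptors the interval leaves out a difference of 1 log2 unit in either direction. *Ly6a*, which encodes Sca-1, was at 20.6 ± 3.38 and 24.3 ± 1.39 CPM (SD, n = 3), and its log2 fold change was 0.25. It belongs to a gene family with very similar copies, and how reads on such copies were counted is not given in the sources used here. *Gsn*, which encodes the actin-severing protein gelsolin and is abundant in fibroblasts, stood at 666, 1420 and 940 CPM in controls B, C and D and at 859, 990 and 985 CPM in knockouts A, E and F. Control replicate C alone exceeded all other libraries, and the log2 fold change was -0.09 (SE 0.28).

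*Dpp4* was the member with the lowest p. It encodes a surface peptidase that, together with *Pi16*, marks a progenitor-like fibroblast population of connective tissue sheaths. *Dpp4* (Entrez 13482, GRCm38 chromosome 2, 62330073 to 62412231, minus strand) stood at 12.9, 24.8 and 15.5 CPM in controls B, C and D and at 35.8, 32.4 and 23.4 CPM in knockouts A, E and F. Replicates A and E were above every control, while F lay just under control replicate C. The means were 17.7 ± 6.23 and 30.5 ± 6.39 CPM (SD, n = 3), a ratio of 1.72. The log2 fold change was 0.79 (SE 0.25, 95% interval 0.23 to 1.36, unadjusted p = 0.0106, adjusted p = 0.382 by edgeR), and the two-sided exact permutation p was 0.2, where 0.1 is the smallest that 3 against 3 allows. Among the 4 genes under an unadjusted 0.05, *Dpp4* was the one that stayed there under each of the 11 alternatives, with log2 fold changes from 0.63 to 1.08 and adjusted p from 0.0996 to 0.877. *Pi16*, which encodes a secreted peptidase inhibitor and is shown by library because it shares this population with *Dpp4*, stood at 22.3, 48.1 and 18.4 CPM in controls B, C and D and at 56.1, 34.6 and 29.2 CPM in knockouts A, E and F. Replicate A was the highest library for both genes, but control replicate C exceeded E and F for *Pi16*, and its log2 fold change was 0.44 (SE 0.43).

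The 5 tendon genes were all higher (median log2 fold change 0.61, the largest of the 8 roles), but without replicate E the median was 0.16, with 4 of 5 higher, below those of the glycoproteins, proteases and proteoglycans. Replicate E was the highest of the 6 libraries for each of the 5. Summed, they stood at 169, 135 and 259 CPM in controls B, C and D, against 116, 515 and 293 CPM in knockouts A, E and F, so that the miDrp1KO group held both the lowest and the highest library. *Scx*, which encodes scleraxis, the transcription factor of tendon progenitors (Entrez 20289, chromosome 15, 76457452 to 76459458, plus strand), stood at 4.21, 5.47 and 3.76 CPM in controls B, C and D and at 5.35, 7.75 and 6.43 CPM in knockouts A, E and F. Replicate A fell just under control C, and E and F were above all controls. The log2 fold change was 0.56 (SE 0.23, unadjusted p = 0.0333, adjusted p = 0.422 by edgeR, two-sided exact permutation p = 0.2), and the unadjusted p was 0.0523 to 0.136 without B, D, E or F and 0.0540 with DESeq2. *Scx* rested on 75 to 316 counts per library. *Thbs4*, which encodes thrombospondin 4 and was the most abundant tendon gene (Entrez 21828, chromosome 13, 92751590 to 92794818, minus strand), stood at 107, 86.1 and 149 CPM in controls B, C and D and at 73.9, 280 and 169 CPM in knockouts A, E and F. Replicate A was the lowest of all libraries and E the highest, and the log2 fold change was 0.61 (95% interval -0.56 to 1.78, adjusted p = 0.686 by edgeR) and 0.09 without E.

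*Fmod*, *Comp* and *Thbs1* are shown by library because their values were seen to follow *Thbs4*. *Fmod*, which encodes fibromodulin, a proteoglycan that binds collagen fibrils (Entrez 14264, chromosome 1, 134037254 to 134048277, plus strand), stood at 42.1, 32.8 and 82.3 CPM in controls B, C and D and at 27.5, 183 and 89.9 CPM in knockouts A, E and F. *Comp*, cartilage oligomeric matrix protein, stood at 6.63, 4.15 and 14.7 CPM and at 4.23, 28.6 and 21.3 CPM in the same order. In both genes E and F were above the controls while A was under the lowest control or close to it. Fitted log2 fold changes were 0.93 (95% interval -1.13 to 2.99) for *Fmod* and 1.06 (95% interval -1.19 to 3.31) for *Comp*, and without E they were 0.16 and 0.56. *Thbs1*, which encodes thrombospondin 1, a matricellular protein known to activate latent TGF-β, stood at 26.2, 22.1 and 36.5 CPM in controls B, C and D and at 20.6, 75.1 and 59.6 CPM in knockouts A, E and F. As in *Fmod* and *Thbs4*, A was the lowest and E the highest library. Its log2 fold change was 0.87 (95% interval -0.35 to 2.10, adjusted p = 0.575 by edgeR). Without replicate A it was 1.27 with an adjusted p of 0.0628, the lowest of any of the 36 genes in any setting, and without replicate E it was 0.51. *Tnmd*, which encodes the tendon membrane protein tenomodulin, was at 8.59 ± 1.57 CPM in control and 9.62 ± 5.82 CPM in miDrp1KO muscle (SD, n = 3), and again E alone was high, at 16.3 CPM.

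**Figure D4:**
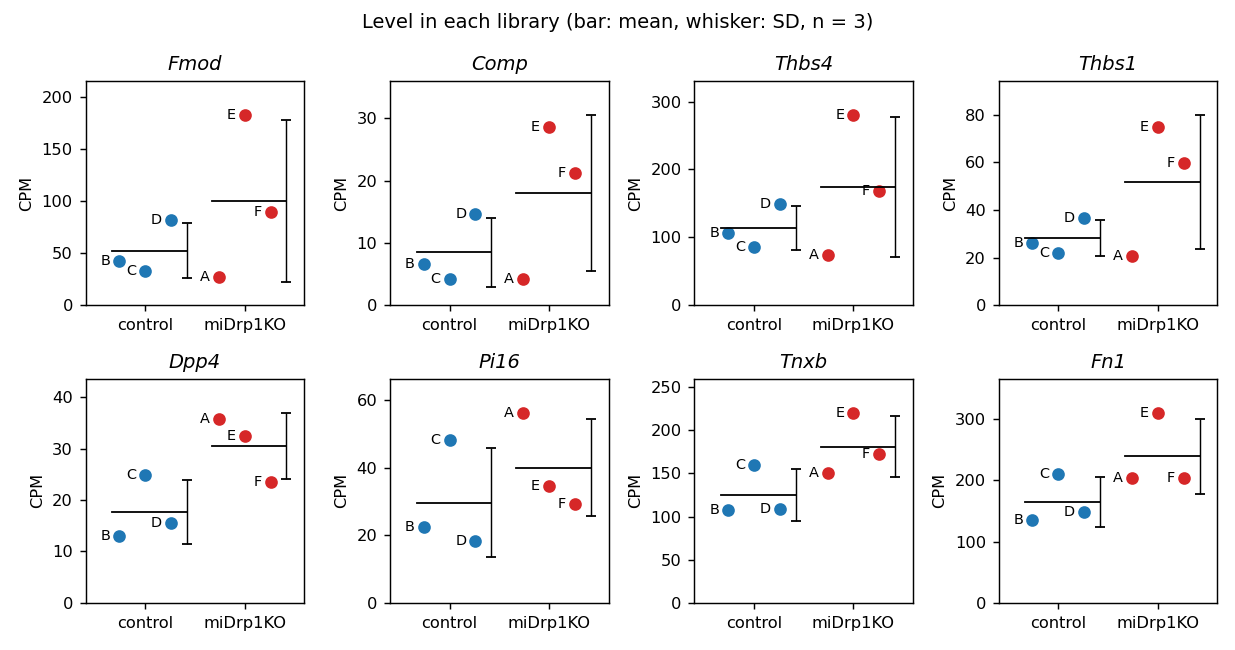
Level in CPM in each library, with the mean and SD of each group (n = 3), for *Fmod*, *Comp*, *Thbs4*, *Thbs1*, *Dpp4*, *Pi16*, *Tnxb* and *Fn1*. In the upper row replicate E is the highest and replicate A at or near the lowest of all libraries, whereas in the lower row control replicate C is the highest control and replicate A is above it for *Dpp4* and *Pi16*.

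For *Dpp4* and *Tnxb*, which have an entry in the promoter table and an unadjusted p under 0.05, and for *Fmod* and *Thbs4*, tendon genes with their highest level in E, chosen after their values were seen, the 250 bases upstream of the annotated start are given 5′ to 3′ from RefSeq (GRCm38.p6), with the E-box CANNTG in capitals. This palindromic motif is the kind of site that scleraxis and other basic helix-loop-helix factors bind. The windows are chr2:62412232-62412481 (minus strand) for *Dpp4*, chr17:34670285-34670534 (plus strand) for *Tnxb*, chr1:134037004-134037253 (plus strand) for *Fmod* and chr13:92794819-92795068 (minus strand) for *Thbs4*.
Dpp4: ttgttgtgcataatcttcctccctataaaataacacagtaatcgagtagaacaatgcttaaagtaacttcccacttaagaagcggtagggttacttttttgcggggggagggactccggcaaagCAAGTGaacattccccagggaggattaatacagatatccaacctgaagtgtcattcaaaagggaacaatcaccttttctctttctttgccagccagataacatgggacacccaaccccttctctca
Tnxb: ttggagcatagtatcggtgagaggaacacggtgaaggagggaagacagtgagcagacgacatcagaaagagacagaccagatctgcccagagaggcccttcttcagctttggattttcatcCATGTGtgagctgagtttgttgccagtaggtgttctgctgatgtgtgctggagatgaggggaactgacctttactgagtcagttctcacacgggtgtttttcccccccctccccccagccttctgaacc
Fmod: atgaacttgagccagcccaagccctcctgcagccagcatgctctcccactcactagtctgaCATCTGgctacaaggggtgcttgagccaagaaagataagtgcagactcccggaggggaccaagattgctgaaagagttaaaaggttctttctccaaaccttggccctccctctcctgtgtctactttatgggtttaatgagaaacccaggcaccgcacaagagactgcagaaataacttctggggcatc
Thbs4: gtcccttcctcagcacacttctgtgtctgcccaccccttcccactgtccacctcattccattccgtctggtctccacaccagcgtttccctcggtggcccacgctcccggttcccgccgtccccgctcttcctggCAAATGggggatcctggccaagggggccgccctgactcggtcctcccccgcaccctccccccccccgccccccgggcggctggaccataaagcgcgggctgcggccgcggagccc
Each of the 4 windows holds 1 E-box. The Smad half-site, CAGAC or GTCTG on the other strand, occurs 0 times in the *Dpp4* window and 2 times in each of the others. Of the 36 genes, 20 had an entry in the promoter table. An E-box lay in 13 of these 20 (65.0%) and in 66.0% of 27025 windows of the same length, and a Smad half-site in 8 of 20 (40.0%) and in 42.1%. Both shares were near those of all genes, so the motifs do not set these windows apart, and a match of letters is not a bound site.

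The small leucine-rich proteoglycans coat collagen fibrils and limit their width. All 3 were higher (median log2 fold change 0.27, and 0.18 without B to 0.43 without C). *Dcn*, decorin, is the most widespread of them and was, after *Gsn*, the most abundant of the 36 genes per kilobase of exon, at 130 CPM per kilobase in control muscle against 319 for *Gsn*. It stood at 637, 935 and 708 CPM in controls B, C and D and at 793, 994 and 968 CPM in knockouts A, E and F. Replicates E and F exceeded each control and A did not, and the log2 fold change was 0.27 (SE 0.23, adjusted p = 0.693 by edgeR). *Lum*, lumican, had means of 46.9 ± 10.6 and 56.2 ± 9.49 CPM (SD, n = 3). *Bgn*, biglycan, was at 20.2 ± 2.96 CPM in control and 27.0 ± 12.3 CPM in miDrp1KO muscle (SD, n = 3), and its log2 fold change of 0.42 became 0.01 without replicate E.

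Elastic fibres have a core of elastin on a scaffold of fibrillin microfibrils. The fitted values of the core and of the main scaffold gene differed in sign, and neither passed the test. Of the 4 elastic fibre genes 3 were higher (median log2 fold change 0.34), and without E 2 were, with a median of -0.09. *Eln*, which encodes elastin, was at 10.6 ± 2.19 CPM in control and 8.06 ± 1.06 CPM in miDrp1KO muscle (SD, n = 3). Its log2 fold change was -0.39 (95% interval -0.84 to 0.06). *Fbn1*, which encodes fibrillin 1, stood at 193, 155 and 172 CPM in controls B, C and D and at 180, 348 and 198 CPM in knockouts A, E and F. Replicate E was far above the others, F was barely above control B, and A lay within the control range. The log2 fold change of *Fbn1* was 0.48 (SE 0.25, adjusted p = 0.523 by edgeR) and 0.12 without E. Its exons share 20.1% of their bases with *Gm9913* on the other strand, and whether the counting used strand is not given in the sources used here. The microfibril-associated genes *Mfap4* and *Mfap5* had log2 fold changes of 0.34 and 0.35. *Mfap4* moved to -0.31 without replicate E.

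Lysyl oxidases crosslink collagen and elastin. All 3 had positive values (median log2 fold change 0.31, and 0.02 without E), and replicate E was the highest library for each. *Lox*, the founding member, stood at 12.7, 23.9 and 16.8 CPM in controls B, C and D and at 15.2, 28.5 and 17.5 CPM in knockouts A, E and F. Control replicate C exceeded A and F, and the log2 fold change was 0.21 (SE 0.29) and -0.11 without E. *Loxl1*, which acts mainly on elastin, and *Loxl2*, which acts on type IV collagen among others, had log2 fold changes of 0.31 and 0.42, with unadjusted p = 0.201 and 0.142 by edgeR, and 0.14 and 0.02 without E.

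The 7 adhesive, matricellular and basement membrane glycoproteins were all higher (median log2 fold change 0.54, and without E 0.22 with 5 of 7 higher), with summed levels of 471, 640 and 493 CPM in controls B, C and D, against 607, 955 and 662 CPM in knockouts A, E and F. Replicate E was again the highest library for each of the 7. *Tnxb*, which encodes tenascin X, a large glycoprotein that spaces collagen fibrils (Entrez 81877, chromosome 17, 34670535 to 34719815, plus strand), stood at 107, 160 and 108 CPM in controls B, C and D and at 151, 220 and 172 CPM in knockouts A, E and F. E and F were above every control, and A lay under control C only. The log2 fold change was 0.54 (SE 0.22, 95% interval 0.05 to 1.02, unadjusted p = 0.0335, adjusted p = 0.423 by edgeR, two-sided exact permutation p = 0.2). *Fn1*, which encodes fibronectin, the first scaffold on which other matrix proteins assemble (Entrez 14268, chromosome 1, 71585520 to 71653200, minus strand), stood at 136, 211 and 148 CPM in controls B, C and D and at 204, 310 and 203 CPM in knockouts A, E and F. Only E exceeded control C, while A and F were well above controls B and D. The log2 fold change was 0.54 (SE 0.24, 95% interval 0.01 to 1.06, unadjusted p = 0.0455, adjusted p = 0.450 by edgeR, two-sided exact permutation p = 0.3). Both genes had an unadjusted p above 0.05 without control B, without control D and without E, from 0.101 to 0.130 for *Tnxb* and from 0.133 to 0.208 for *Fn1*, which also stood at 0.0515 with limma voom. *Nid1*, nidogen 1 of the basement membrane, had means of 112 ± 25.7 and 145 ± 27.7 CPM (SD, n = 3) and a log2 fold change of 0.37. *Tnc*, tenascin C, which appears in injured muscle and at the muscle-tendon junction, had a log2 fold change of 0.62 (95% interval -0.26 to 1.49) and of 0.06 without replicate E. *Postn* (periostin) and *Sparc*, matricellular proteins of remodelling tissue, had log2 fold changes of 0.24 and 0.18 and moved to -0.20 and -0.08 without replicate E.

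Of the 5 genes of matrix proteases and their inhibitors, 4 were higher (median log2 fold change 0.27, but 0.13 without control B and 0.58 without control C). *Mmp2*, gelatinase A, was at 41.3 ± 10.4 CPM in control and 53.5 ± 10.5 CPM in miDrp1KO muscle (SD, n = 3). Its log2 fold change was 0.38, and *Mmp14*, the membrane protease that activates it, had a log2 fold change of 0.17. *Timp2* and *Timp3* inhibit these proteases. *Timp3*, the most abundant of the group, stood at 212, 236 and 204 CPM in controls B, C and D and at 269, 192 and 159 CPM in knockouts A, E and F. The miDrp1KO group held both the highest library (A) and the 2 lowest (F and E), and the log2 fold change was -0.07 (95% interval -0.55 to 0.40). Its exons share 21.3% of their bases with *Syn3* on the other strand. *Timp2* had a log2 fold change of 0.27. *Timp1*, the inducible inhibitor of inflamed and injured tissue, held 3, 4 and 57 counts in B, C and D and 11, 65 and 16 counts in A, E and F, too few for a stable ratio.

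With all 6 libraries, the TGF-β ligands were the group nearest to 0, with a median log2 fold change of 0.03 (-0.05 without E, 0.14 without F). *Tgfb3*, the most abundant ligand by CPM, stood at 42.2, 49.3 and 37.3 CPM in controls B, C and D and at 38.4, 34.7 and 32.2 CPM in knockouts A, E and F. Replicates E and F were under every control and A overlapped them, and the log2 fold change was -0.29 (95% interval -0.65 to 0.07, adjusted p = 0.548 by edgeR). *Tgfb2* stood at 33.6, 33.0 and 35.9 CPM in the controls and at 35.8, 38.3 and 30.5 CPM in the knockouts, which overlapped, with a log2 fold change of 0.03 (95% interval -0.31 to 0.36). *Tgfb1*, the ligand most often tied to fibrosis, had the lowest level of the 36 genes per kilobase of exon, 0.401 CPM per kilobase in control muscle, and a log2 fold change of 0.23 (95% interval -0.45 to 0.92). For all 3 ligands the interval leaves out a change of 1 log2 unit.

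Other genes of the TGF-β pathway were looked at in a list of 26 receptors, latency proteins, Smads and target genes, all tested. Of these, 16 were higher, 10 lower, and the median log2 fold change was 0.13, but without replicate E 12 were higher and 14 lower, with a median of -0.02. At an unadjusted p under 0.05, 3 were higher and 2 lower, against 4.68% and 6.22% of all tested genes, and the lowest adjusted p was 0.362 (edgeR). The 3 became 1 without E (all tested genes 3.27%) and 7 without A (8.55%). *Smad3*, a signal carrier of the pathway, stood at 118, 140 and 106 CPM in controls B, C and D and at 74.8, 73.5 and 50.3 CPM in knockouts A, E and F, with every miDrp1KO library under every control (log2 fold change -0.87, SE 0.20, adjusted p = 0.362 by edgeR). *Smad4*, the partner shared by the Smads, was also lower in every miDrp1KO library, with means of 70.8 and 52.9 CPM. In the other direction stood *Bambi*, which encodes a decoy receptor, with means of 0.925 and 1.85 CPM. The same held for *Ltbp2*, a microfibril-bound protein, with 0.736 and 1.53 CPM. Both rested on few counts, 9 to 91 per library for *Bambi* and 6 to 56 for *Ltbp2*. Of the 26 genes, 3 lay higher and 3 lower in every miDrp1KO library than in every control, *Smad3*, *Smad4* and *Bambi* among them, which is near the 7.67% and 10.3% of all tested genes.

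Lists of further genes of the same tissues, none of them among the 36, showed how far the pattern went. Of 13 other tendon and sheath genes, 13 were higher, their median log2 fold change being 0.58, and E was the highest library for 10. Without replicate E, 12 of the 13 stayed higher, with a median of 0.39, while the median of the 5 tendon genes among the 36 fell to 0.16. At an unadjusted p under 0.05, 2 of the 13 were higher, against 4.68% of all tested genes. These were *Chodl*, with means of 8.54 and 12.3 CPM, and *Mkx*, a tendon transcription factor, with 1.72 and 3.38 CPM. The 2 became 0 without E (all tested genes 3.27%), 1 without B (5.30%) or C (5.02%), and 9 without A (8.55%). Of 26 other fibroblast genes tested of 27 listed, 21 were higher with a median of 0.21, and without control replicate B 17 were, with a median of 0.08. Replicate E was the highest library for 16 of the 26. Without it 16 were higher and 10 lower, with a median of 0.12. At an unadjusted p under 0.05, 5 of the 26 were higher, against 4.68% of all tested genes. The 5 became 2 without B (all tested genes 5.30%) or without E (3.27%) and 9 without A (8.55%). In 3 of the 26 the groups separated upward, against 7.67% of all tested genes. Of the 26, *Has2*, which makes hyaluronan, had means of 2.88 and 5.16 CPM and *Efemp1*, a fibulin, 28.3 and 42.7 CPM. Both separated the groups upward, while *Htra3*, a secreted protease, had 11.3 and 17.2 CPM in overlapping groups. Of 13 other elastic fibre and crosslinking genes, 9 were higher with a median of 0.37 (0.18 without E). At an unadjusted p under 0.05, 2 of these 13 were higher, *Emilin2* and *Plod2*, against 4.68% of all tested genes. Their number was 0 with DESeq2 (all tested genes 3.89%), without D (3.21%) or without E (3.27%), and 5 without A (8.55%). Of 20 other proteases and inhibitors, 11 were higher with a median of 0.02 (-0.07 without B, 0.10 without C). *Mmp15* alone passed an unadjusted 0.05, lower at 11.9 and 8.21 CPM, and 1 of 20 is near the 6.22% of all tested genes. Genes lower at that level numbered 2 without A (all tested genes 8.9%) or B (3.5%) and 0 without D (2.15%). Without A, B or D, 1 gene was higher at that level (all tested genes 8.55, 5.30 and 3.21%). Of 12 fibrillar and microfibril collagens, 11 were higher with a median of 0.33, E was the highest library for 11, and without E 6 were higher and 6 lower. In none of these lists did a gene reach an adjusted p under 0.05.

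**Figure D5:**
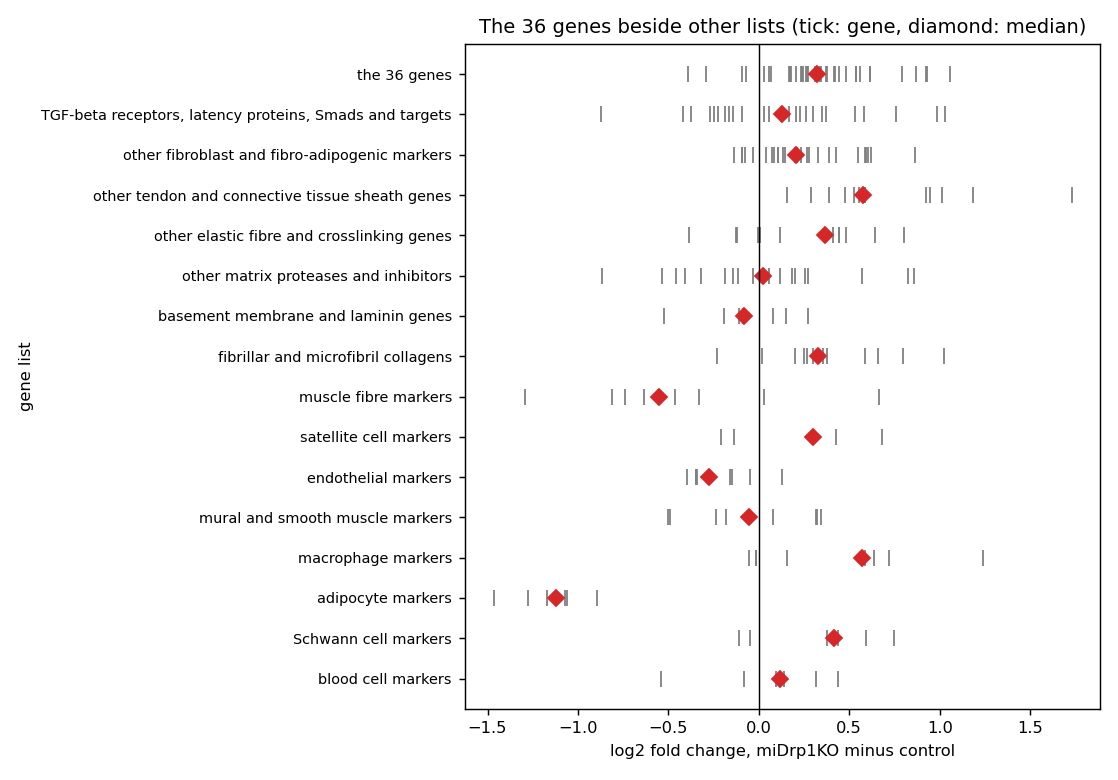
Log2 fold change (miDrp1KO minus control) of each tested gene in the 36-gene list, in the related gene lists and in lists of markers of other cell types, with the median of each list marked. The medians are 0.32 for the 36 genes, 0.58 for the other tendon genes, -0.55 for muscle fibre markers and -1.12 for adipocyte markers. Without replicate E the median of the muscle fibre markers was -0.35.

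Markers of other cells in the tissue did not all move with the matrix genes. Of 9 macrophage markers, 6 were higher, 4 of them at an unadjusted p under 0.05 (all tested genes 4.68%), with summed levels of 171 to 312 CPM in control and 257 to 292 CPM in miDrp1KO libraries. The complement genes *C1qa*, *C1qb* and *C1qc*, made by tissue macrophages, had means of 17.4, 1.59 and 9.10 CPM in control and 27.0, 3.64 and 14.8 CPM in miDrp1KO muscle. *Mrc1*, *Cd163* and *Adgre1*, surface markers of macrophages, were the 3 with lower fitted levels, at log2 fold changes of -0.01, -0.01 and -0.05. All 9 were higher with limma voom, without control C (median 0.78) and without F, so the sign of these 3 depends on the setting. The list's median of 0.57 ran from 0.34 without control B to 0.78 without control C, and its genes higher at an unadjusted p under 0.05 from 2 (without A, B or D, where all tested genes gave 8.55, 5.30 and 3.21%) to 6 (without C, against 5.02%). Of 7 Schwann cell markers, 5 were higher, with summed levels of 37.0 to 52.1 CPM and 40.7 to 72.6 CPM, highest in replicate E. Of 6 adipocyte markers, 6 were lower, with summed levels of 186 to 395 CPM in control and 70.5 to 181 CPM in miDrp1KO libraries and the lowest level in E. *Adipoq*, the adipokine adiponectin, had means of 38.9 and 16.1 CPM, and *Plin1*, the lipid droplet coat protein perilipin, 20.9 and 9.33 CPM. In these 2 of the 6 the groups separated downward, against 10.3% of all tested genes. At an unadjusted p under 0.05, 3 of the 6 were lower, against 6.22% of all tested genes. The 3 became 1 without C (5.45%) and 5 with DESeq2 (4.19%), limma voom (7.01%) or the ribosomal RNA covariate (4.58%). Of 9 endothelial markers 8 were lower, with a median of -0.28, but without control replicate B 4 were lower, with a median of 0.05. Of 8 mural markers 4 were lower. Basement membrane genes, satellite cell markers and blood cell markers had medians of -0.08, 0.30 and 0.12, with 3 of 8, 3 of 5 and 4 of 6 genes higher. These values rested on single libraries: the basement membrane median was 0.10 without F, the satellite cell median 0.04 without E, and the blood cell median ran from -0.35 without E, with 1 of 6 higher, to 1.15 without B, with 6 of 6 higher. Replicate E thus combined the highest level of most of the 36 matrix genes with the lowest levels of fibre and adipocyte markers, and the part of these cells in the result was not tested.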

How the data were processed

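The authors deposited unnormalized counts for 27179 Entrez genes, with 1 file for each library. Per the methods of the study, total RNA was depleted of ribosomal RNA, and after FastQC the reads were mapped to GRCm38 and assigned to genes by Rsubread. The strand setting, the treatment of overlapping genes and the pool of each library are not given in the sources used here. Tests used edgeR 4.0.16 in R 4.3.3: TMM, filterByExpr, robust quasi-likelihood fit by genotype, Benjamini-Hochberg over 16483 genes, threshold 0.05. CPM used TMM library sizes. The biological coefficient of variation was 0.252. Exon length and coordinates came from GENCODE M21. Alternatives were DESeq2 1.42.0, limma 3.58.1 voom, RLE normalization, no filter on low counts, ribosomal RNA share as covariate, and fits without each replicate. Methods were tested on simulated data with planted differences between the groups, in which no single library was made to stand apart as replicate E did.

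The members and lists were chosen with earlier results of these data known. Genes shown by library were those with an unadjusted p under 0.05, those whose groups did not overlap, and the most abundant by CPM of each role. From the related gene lists, up to 3 genes per direction with an unadjusted p under 0.05 were named. For markers of other cell types not every such gene was named, and no muscle fibre marker was. *Pi16*, *Pdgfra*, *Fmod*, *Comp*, *Thbs1*, *Timp1* and *Tgfb2* were added after their values were seen. *Cyr61* and *Ctgf* are the older symbols under which *Ccn1* and *Ccn2* were matched. 1 gene of the TGF-β list that this rule names is not reported here. No sample was left out or pooled.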

Additional observations from a re-analysis of the deposited data

How the results depend on the processing

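None of the 36 genes reached an adjusted p under 0.05 under any of the 11 alternatives, and 32 of 36 were higher with DESeq2, limma voom, RLE normalization and without the filter on low counts. Over all genes the number of calls was 2 in the reported fit, 109 with DESeq2, 8 without the filter, 1 with ribosomal RNA share as covariate, and 1 to 7 without each replicate in turn. DESeq2 gave no adjusted p for 14 of the 36 genes. Genes of the 36 higher at an unadjusted p under 0.05 numbered 4, then 11 with the covariate (all tested genes 3.76%) and 1 to 12 without each replicate (all tested genes 3.21 to 8.55%), and genes lower 0 to 1 without each replicate. *Gsn* reversed to 0.0048 with the covariate. Some log2 fold changes reversed without 1 replicate, given here with their range over the fits without each replicate in turn. Those reversed without E were *Pdgfrb* (-0.0871 to 0.243), *Tgfb2* (-0.0467 to 0.137), *Tnmd* (-0.46 to 0.47), *Mfap4* (-0.31 to 0.66), *Lox* (-0.11 to 0.45), *Postn* (-0.20 to 0.48) and *Sparc* (-0.0832 to 0.357). *Pdgfrb* and *Tgfb2* also reversed without C, as did *Gsn* (-0.30 to 0.21). *Pdgfra* (-0.0467 to 0.226) reversed without B and *Timp3* (-0.29 to 0.10) without F. The causes were not tested. The median of all genes stood at 0.11 without the filter, where the 36 genes had 0.33. No paired analysis was possible because no pairing of control and miDrp1KO libraries is given in the sources used here. With 3 libraries per group the 95% intervals of 16 of the 36 genes reached 1 log2 unit or more, so differences of that size were not excluded for them.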
